A study of Mus musculus with 4 samples.

Results

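Matrix proteins are secreted by a cell and assembled around it, where they carry adhesion signals and hold growth factors. Irradiation of tumours and normal tissue is known to be followed by remodelling of this matrix. The 10 genes described here encode adhesive glycoproteins, proteins that bind matrix without building it, and small proteoglycans. They were chosen by name and matched by gene symbol, and all 10 are among the 26561 genes of the deposited count table. The study compared cultured MC38 cells, a mouse colon adenocarcinoma line, labelled as wild type and epithelial. One group of 2 libraries was unirradiated. The other group of 2 libraries was taken 60 h after a single X-ray fraction of 30 Gy. When the unirradiated cells were harvested is not stated, so time in culture and cell density cannot be told apart from irradiation.

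Total counts ran from 26059171 to 29881492 per library. Genes with more than 0 counts numbered 19413 and 19531 in the unirradiated and 22713 and 22663 in the irradiated libraries. More genes were thus detected after irradiation over the whole table. The part of this in rises from few counts was not tested. The labels do not say whether replicates were separate cultures, so p-values rest on a spread between libraries that may be technical. Levels are given as CPM, counts per 1e+06 counts of the scaled library size, and differences were tested with edgeR's quasi-likelihood test over 15298 genes. A gene is said to have risen or fallen where its Benjamini-Hochberg adjusted p was under 0.05. By that rule 60.7% of the tested genes changed, with 30.4% of all tested genes higher and 30.3% lower, so a call alone sets a gene little apart in these data. Before and after irradiation stand below for the unirradiated and the irradiated libraries, which are separate samples. In bulk RNA, more RNA per cell and more cells of a kind that express a gene cannot be told apart.

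Markers bear on what kind of cell these libraries hold. Of 10 epithelial markers, 9 of them in the table, Epcam, Krt18 and Krt20 had 0 counts in both unirradiated libraries, and the highest, the adhesion gene Cdh1, stood at 35.4 ± 1.24 CPM (SD, n = 2) there and at 70.4 ± 3.72 CPM after irradiation. The 10 fibroblast markers summed to between 2039 and 2050 CPM in the unirradiated and between 2548 and 2549 CPM in the irradiated libraries. Of the 8 that could be tested, 7 were higher and 1 lower, beside 30.4% higher and 30.3% lower of all tested genes. Of the 7, Dpt (4 and 0 counts before irradiation) and Pi16 (15 and 9) reached the filter on low counts only through the irradiated libraries. The highest fibroblast marker over all libraries was the collagen gene Col1a2, at 749 ± 5.23 and 914 ± 12.3 CPM (SD, n = 2), whereas Thy1 had 0 counts in both unirradiated libraries. Neither list was high throughout: apart from Cdh1 the epithelial markers were at most 1.84 CPM before irradiation, while among the fibroblast markers Col3a1 and Cd34 stood at 350 ± 3.31 and 843 ± 4.94 CPM, but Col1a1 at 5.21 ± 0.776, Pi16 at 0.427 ± 0.168, Dpt at 0.0728 ± 0.103 and Fap at 0.0706 ± 0.00302 CPM. Of the 9 markers of the labelled epithelial type, Cdh1 was thus present before irradiation and Epcam, Krt18 and Krt20 were at 0. Krt19 (50 and 53 counts), Lgals4 (52 and 52), Krt8 (6 and 3), Vil1 (3 and 1) and Cldn7 (1 and 0) were low there. Of the 4 epithelial markers that could be tested, 3 were higher and 0 lower, beside 30.4% and 30.3% of all tested genes. Of the 3, Cdh1, Lgals4 and Krt8, Krt8 reached the filter on low counts only through the irradiated libraries. The macrophage list, 8 of whose 10 genes are in the table, summed to between 8.73 and 10.8 CPM before and between 39.8 and 45.8 CPM after irradiation. The highest over all libraries was the lysosomal gene Cd68, which rose from 4.23 ± 0.555 to 34.6 ± 4.23 CPM (SD, n = 2). Before irradiation Cd14 was higher, at 5.21 ± 0.821 CPM, and it did not pass the test (6.44 ± 0.157 CPM after). Adgre1 and C1qb each had 2 counts, in 1 irradiated library, and 0 elsewhere. Of the 4 macrophage markers that could be tested, 2 were higher, Cd68 and Lyz2, and 0 lower. Lyz2 went from 0 and 2 to 23 and 20 counts, and reached the filter on low counts only through the irradiated libraries. Endothelial markers summed to at most 7.86 CPM before and 19.8 CPM after irradiation, with Vwf, the highest over all libraries, at 1.67 ± 0.670 and 10.1 ± 0.312 CPM. Before irradiation Egfl7, at 2.99 ± 0.203 CPM, and Pecam1, at 1.95 ± 0.483 CPM, were above Vwf in mean. Egfl7 did not pass the test (3.03 ± 0.131 CPM after), while Pecam1 rose to 5.17 ± 0.418 CPM. Of the 4 endothelial markers that could be tested, 3 were higher, Vwf, Pecam1 and Tek, and 0 lower. Tek, with 0 and 4 counts before irradiation, reached the filter on low counts only through the irradiated libraries. Smooth muscle and pericyte markers summed to between 598 and 622 CPM before and between 378 and 400 CPM after, nearly all of it the proteoglycan gene Cspg4 (606 ± 16.7 and 382 ± 16.1 CPM). Osteoblast markers were listed because osteoblasts are rich in Spp1 and Sparc. They summed to between 67.5 and 68.1 CPM before and between 80.9 and 83.8 CPM after. The highest was the transcription factor gene Runx2 (59.4 ± 0.902 and 65.0 ± 0.819 CPM), which did not pass the test (edgeR adjusted p = 0.0547). Phex, the only other osteoblast marker that could be tested, rose from 8.07 ± 0.270 to 16.8 ± 0.777 CPM. The part of any of these marker shifts in the results was not tested.

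The 9 matrix genes that could be tested all rose, and the groups did not overlap in any of them. Of these, Postn and Thbs2 reached the filter on low counts only through the irradiated libraries, so they could enter the test only by being high there. The other 7 reached it in both unirradiated libraries, and all 7 rose, 5 of them at least 2-fold. Against this stand 30.4% of all tested genes that rose and 39.7% whose irradiated libraries both lay above. A rise of at least 2-fold was found for 7 of the 9, against 12.4% of all tested genes. None of the 9 fell, by edgeR, by DESeq2 or at an unadjusted p under 0.05. Their median log2 fold change was 2.97, beside 0.01 over all tested genes, and the changes ran from 1.09-fold for Sparc to 25-fold for Postn. The remaining gene, Lum, was too low to be tested. Together the 10 genes held 0.408% and 0.404% of all counts without irradiation and 0.691% and 0.695% with it. Of the summed increase in CPM, Fn1 made up 42.9% and Bgn 41.1%.

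**Figure D1:**
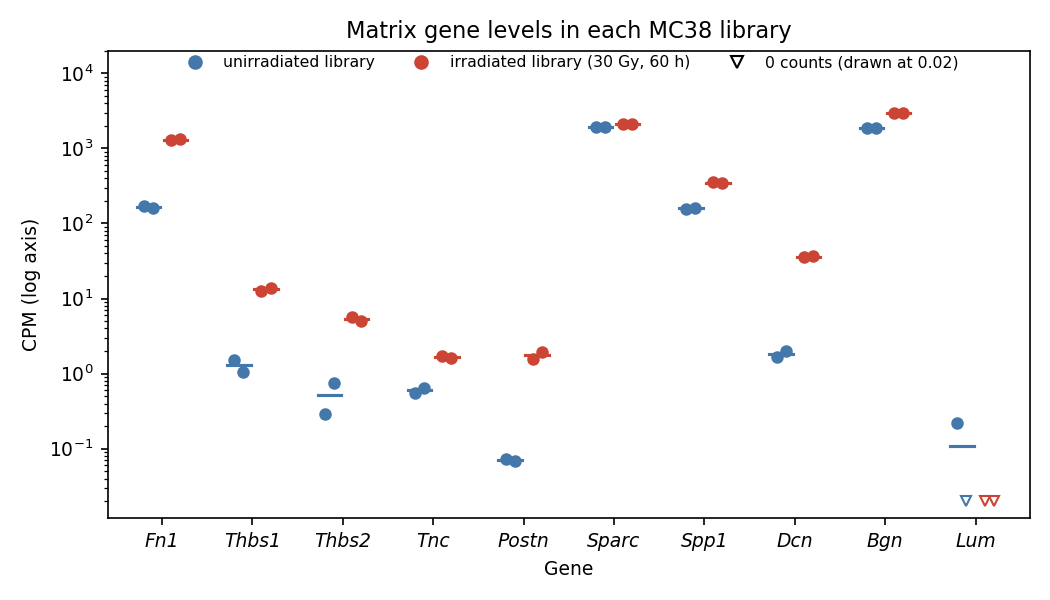
CPM (log axis) of the 10 matrix genes in each of the 4 libraries. Points are libraries, horizontal bars are group means and open triangles mark 0 counts. In 9 genes the irradiated points lie above the unirradiated ones, and Lum has counts in 1 unirradiated library only.

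RefSeq's table of promoter windows (GRCm38.p6) held 6 of the 10 genes. Windows are shown for a pair that was almost silent before irradiation, Postn and Thbs2, and for a pair that was already abundant, Spp1 and Bgn, as the 250 bases before the RefSeq start, 5′ to 3′ on the gene's strand. Capitals mark matches, on either strand, to the TATA box letters TATAAA, the GC box letters GGGCGG, the AP-1 site TGACTCA, the E-box CAGATG or the ETS core CCGGAA. The 5 motifs share no letters with each other in any of the 6 windows.
Postn, chr3:54360857-54361106, plus strand: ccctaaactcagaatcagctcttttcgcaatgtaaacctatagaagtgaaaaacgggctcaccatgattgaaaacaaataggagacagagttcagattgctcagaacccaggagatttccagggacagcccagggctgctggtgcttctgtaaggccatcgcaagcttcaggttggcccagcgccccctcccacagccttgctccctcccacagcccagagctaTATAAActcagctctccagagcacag
Thbs2, chr17:14694263-14694512, minus strand: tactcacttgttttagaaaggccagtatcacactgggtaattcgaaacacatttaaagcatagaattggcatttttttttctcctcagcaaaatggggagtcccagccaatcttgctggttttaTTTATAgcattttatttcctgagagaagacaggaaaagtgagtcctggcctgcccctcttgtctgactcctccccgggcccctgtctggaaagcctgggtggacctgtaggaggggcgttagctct
Spp1, chr5:104434861-104435110, plus strand: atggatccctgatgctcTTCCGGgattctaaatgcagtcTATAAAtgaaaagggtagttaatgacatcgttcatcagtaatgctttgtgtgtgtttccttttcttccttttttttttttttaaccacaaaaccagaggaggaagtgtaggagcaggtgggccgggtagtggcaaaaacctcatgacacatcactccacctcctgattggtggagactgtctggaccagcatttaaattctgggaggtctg
Bgn, chrX:73483351-73483600, plus strand: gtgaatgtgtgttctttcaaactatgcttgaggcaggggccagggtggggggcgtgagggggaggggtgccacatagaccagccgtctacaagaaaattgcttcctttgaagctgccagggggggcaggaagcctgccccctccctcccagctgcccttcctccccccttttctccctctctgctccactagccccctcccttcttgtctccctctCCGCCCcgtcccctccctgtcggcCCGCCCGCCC
A TATAAA match begins 26 bases before the start in Postn. It lies farther out in Thbs2 and in Tnc, at 126 bases in each, and at 211 bases in Spp1. Bgn holds none, but has 3 GGGCGG matches, of which the last pair begins 10 and 6 bases before the start and overlaps. Of all 32851 windows of this length in the table, 12.4% held TATAAA and 32.7% held GGGCGG. No window of the 6 held TGACTCA, which 4.46% of all windows hold. Spp1 had a CCGGAA match 233 bases before the start, against 12% of all windows, and CAGATG, found in 14.4%, was matched only in Sparc, whose window lies inside the GENCODE gene with 238 of its 250 bases in an exon and so cannot be compared with the others. GC content was 64.4% in Bgn, 52.0% in Postn, 46.8% in Thbs2 and 43.6% in Spp1, beside a median of 52.4% over all windows. These are matches of letters and say nothing of binding.

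Fibronectin is the dimeric glycoprotein that cells assemble into fibrils and grip through integrins. Fn1 (ENSMUSG00000026193, chromosome 1, 71585520 to 71653200, minus strand, GRCm38) held 4679 and 4744 counts without irradiation against 38598 and 34906 with it. In CPM these are 170 and 163 against 1297 and 1315, so libraries of a group lay close together and the groups far apart. Fn1 rose 7.85-fold, from 166 ± 5.49 to 1306 ± 12.9 CPM (SD, n = 2; log2 fold change 2.97, SE 0.03, adjusted p below 1e-300). Its increase of 1139 CPM was the largest of all 15298 tested genes. CPM favours long messages, and per kilobase of exon its increase ranked 39. Among the 2485 genes with a mean over 100 CPM, 2 had a log2 fold change at least as large, Fn1 itself included. In that range 32.4% of genes rose and 49.9% fell, and the median log2 fold change was -0.08. Fn1 moved from 1345 to 47 in the ranking of tested genes by CPM. Its exons share 292 bases with Apol7d on the other strand, which had 25 counts over all libraries against 82927 for Fn1.

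**Figure D2:**
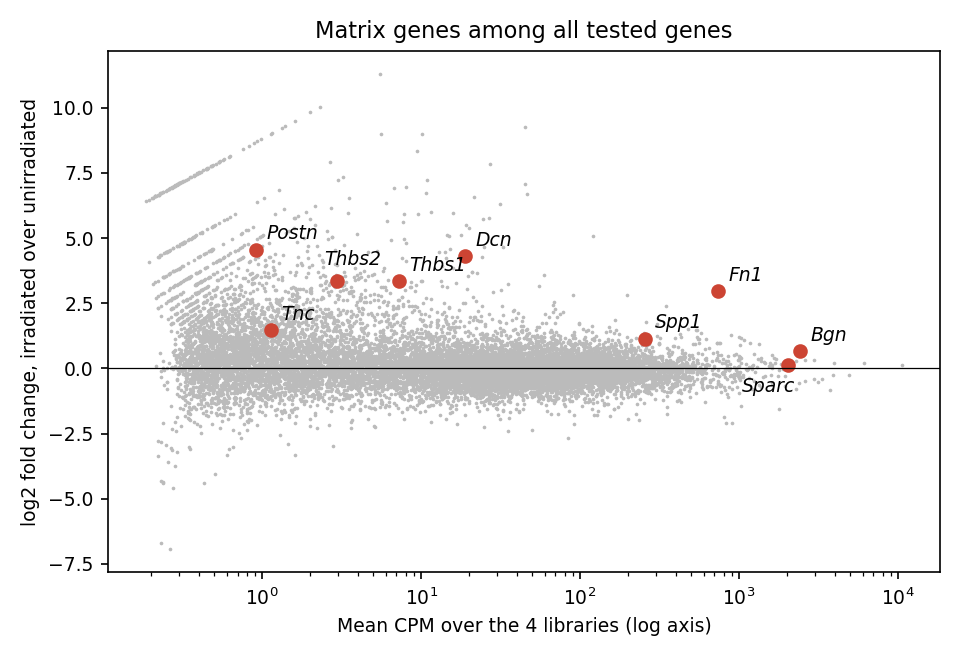
Log2 fold change of every tested gene (grey) against its mean CPM over the 4 libraries (log axis), with the 9 tested matrix genes in red. Fn1, at a log2 fold change of 2.97 and a mean of 736 CPM, stands above nearly all genes of its level, while Thbs1, Thbs2, Tnc and Postn lie in a range where large changes are common.

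The thrombospondins encoded by Thbs1 and Thbs2 are trimeric glycoproteins that modulate adhesion rather than build fibres. Thrombospondin-1 activates latent TGF-beta and, through CD36 and CD47, restrains the growth of vessels. Thbs1 (ENSMUSG00000040152, chromosome 2, 118111876 to 118127133, plus strand) held 42 and 31 counts before irradiation and 371 in each library after it. It rose 10.2-fold, from 1.30 ± 0.330 to 13.2 ± 1.07 CPM (SD, n = 2; log2 fold change 3.35, SE 0.22, adjusted p = 1.49e-51). Its exons share 208 bases with the noncoding gene Gm29233 on the other strand, which has no row in the table used here. The strand setting of the counting is not given, so whether reads of Gm29233 were counted for Thbs1 is not known. Thbs2 (ENSMUSG00000023885, chromosome 17, 14665500 to 14694235, minus strand) encodes the close relative that binds the same receptors and is known for its part in collagen fibril assembly. Its 8 and 22 counts without irradiation differ from each other more than those of Thbs1, and irradiated cells gave 169 and 135. The rise was 10.3-fold, from 0.522 ± 0.327 to 5.38 ± 0.418 CPM (SD, n = 2; log2 fold change 3.34, SE 0.34, adjusted p = 1.06e-21). Over the settings tried, the log2 fold change of Thbs2 ran from 2.81 to 4.18 and that of Thbs1 from 3.10 to 3.62. The fitted changes of this pair differed by far less than their standard errors. Of the 7404 genes with a mean under 20 CPM, where both lie, 31.1% rose and 14.4% fell, and a log2 fold change of 3.49 marks the 95th percentile.

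Tenascin-C and periostin are matricellular proteins of wounds, tendon and tumour stroma. Tnc (ENSMUSG00000028364, chromosome 4, 63959785 to 64047015, minus strand) was scarce, with 15 and 19 counts before irradiation and 51 and 43 after it. It rose 2.79-fold, from 0.598 ± 0.0742 to 1.67 ± 0.0661 CPM (SD, n = 2; log2 fold change 1.47, SE 0.50, adjusted p = 0.00613), and did not pass without irradiated replicate 1 (adjusted p = 0.0682). Its exons share 176 bases with 8030451A03Rik on the other strand, which rose from 4 and 2 to 56 and 45 counts. The sources used here do not give the strand setting of the authors' counting, so the level of Tnc apart from 8030451A03Rik is uncertain. Postn (ENSMUSG00000027750, chromosome 3, 54361109 to 54391037, plus strand), which encodes periostin, had 2 counts in each unirradiated library and 47 and 52 in the irradiated ones. In CPM it went from 0.0706 ± 0.00302 to 1.77 ± 0.269 (SD, n = 2), a 25-fold rise (log2 fold change 4.56, SE 0.74, adjusted p = 3.34e-09). With so few counts before irradiation, the ratio of group counts of 24.9 has an exact 95% interval of 9.43 to 93.2, which covers counting error only. Postn had the largest fold of the 9 and, with Tnc, the lowest level after irradiation.

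Sparc and osteopontin bind matrix and mineral. Sparc (ENSMUSG00000018593, chromosome 11, 55394500 to 55423183, minus strand) encodes a collagen-binding glycoprotein, also called osteonectin, and was among the most abundant transcripts of these cells. Its level was 1946 and 1917 CPM in the unirradiated libraries, the 20th highest mean of all tested genes, and 2104 and 2118 CPM in the irradiated ones. The groups did not overlap, but the rise was only 1.09-fold (log2 fold change 0.13, SE 0.02, adjusted p = 1.64e-09), from 1931 ± 20.7 to 2111 ± 9.81 CPM (SD, n = 2). Spp1 (ENSMUSG00000029304, chromosome 5, 104435118 to 104441050, plus strand) encodes osteopontin, a secreted phosphoprotein that binds integrins and CD44. Its counts were 4316 and 4718 before irradiation and 10647 and 9164 after it. This was a 2.21-fold rise, from 159 ± 3.22 to 351 ± 8.81 CPM (SD, n = 2; log2 fold change 1.14, SE 0.04, adjusted p = 8.35e-214). Gm42793 on the same strand shares 309 bases of exon with Spp1 and had 51 counts in all, against 28845.

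Decorin, biglycan and lumican are small leucine-rich proteoglycans, whose curved cores bind collagen fibrils. Decorin also binds TGF-beta and receptor kinases, and soluble biglycan is a ligand of Toll-like receptors. Dcn (ENSMUSG00000019929, chromosome 10, 97479609 to 97518143, plus strand) went from 46 and 58 counts to 1073 and 965 with irradiation. It rose 19.8-fold, from 1.83 ± 0.221 to 36.2 ± 0.217 CPM (SD, n = 2; log2 fold change 4.30, SE 0.15, adjusted p = 1.52e-182), with little spread in either group. Of the 7404 genes with a mean under 20 CPM, 236 had a log2 fold change at least as large, Dcn included. Bgn (ENSMUSG00000031375, chromosome X, 73483602 to 73495933, plus strand) started from a far higher level, 1881 and 1885 CPM, and reached 2962 and 2984 CPM. The rise was 1.58-fold, from 1883 ± 3.11 to 2973 ± 15.5 CPM (SD, n = 2; log2 fold change 0.66, SE 0.02, adjusted p = 1.51e-238). Its increase of 1090 CPM was the 2nd largest of all tested genes and the 21st largest per kilobase of exon. Lum (ENSMUSG00000036446, chromosome 10, 97565128 to 97572703, plus strand) had 6 counts in unirradiated replicate 1 and 0 in each of the other libraries. It was below the filter on low counts, and 0 counts in both irradiated libraries allow a level of up to 0.0533 CPM over the group, so no change of Lum was detectable at this depth.

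**Figure D3:**
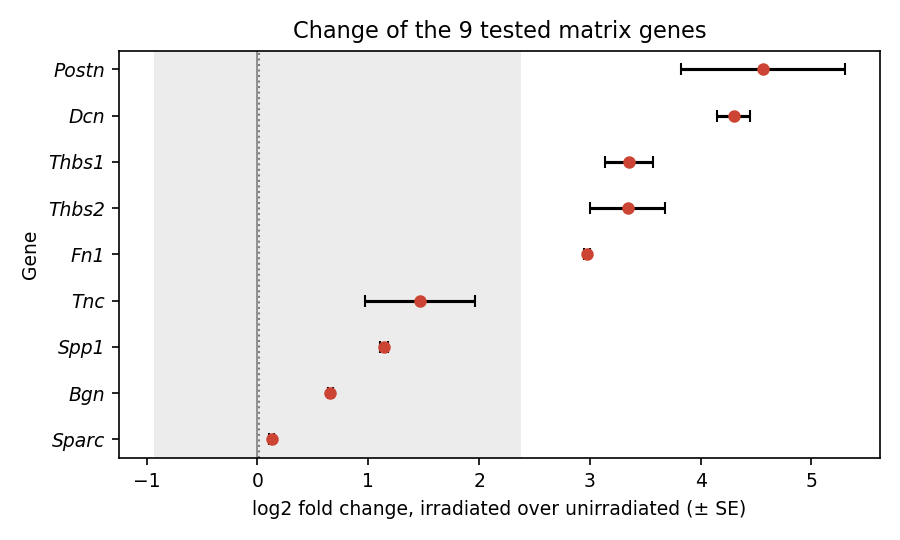
Log2 fold change with its standard error for the 9 tested matrix genes, n = 2 libraries in each group. The grey band spans the 5th to 95th percentile of all tested genes, from -0.93 to 2.38, and the dotted line is their median. Postn, Dcn, Thbs1, Thbs2 and Fn1 lie beyond the band, and Tnc, Spp1, Bgn and Sparc within it.

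Levels can be compared between genes only per length, here as CPM per kilobase of merged exons. In the unirradiated cells Sparc came first at 510 ± 5.46, followed by Bgn at 309 ± 0.510, Spp1 at 96.7 ± 1.95 and Fn1 at 14.2 ± 0.470 CPM per kilobase (SD, n = 2). Below them were Dcn at 0.314 ± 0.0379 and Thbs1 at 0.213 ± 0.0543, then Tnc at 0.0770 ± 0.00955 and Thbs2 at 0.0746 ± 0.0467, which did not differ beyond their spread. Lum, at 0.0446 ± 0.0631, overlapped both of these and also Postn at 0.00812 ± 0.000347, with 1 library above and 1 below it. After irradiation the first 4 kept their order, at 557 ± 2.59 for Sparc, 487 ± 2.54 for Bgn, 213 ± 5.34 for Spp1 and 112 ± 1.11 CPM per kilobase for Fn1 (SD, n = 2). Then came Dcn at 6.20 ± 0.0371, Thbs1 at 2.18 ± 0.176 and Thbs2 at 0.768 ± 0.0598, while Tnc at 0.214 ± 0.00850 and Postn at 0.203 ± 0.0309 overlapped. The order of Sparc and Bgn after irradiation depends on the length used, since with the longest transcript Bgn came first at 1115 and Sparc was at 918 CPM per kilobase.

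**Figure D4:**
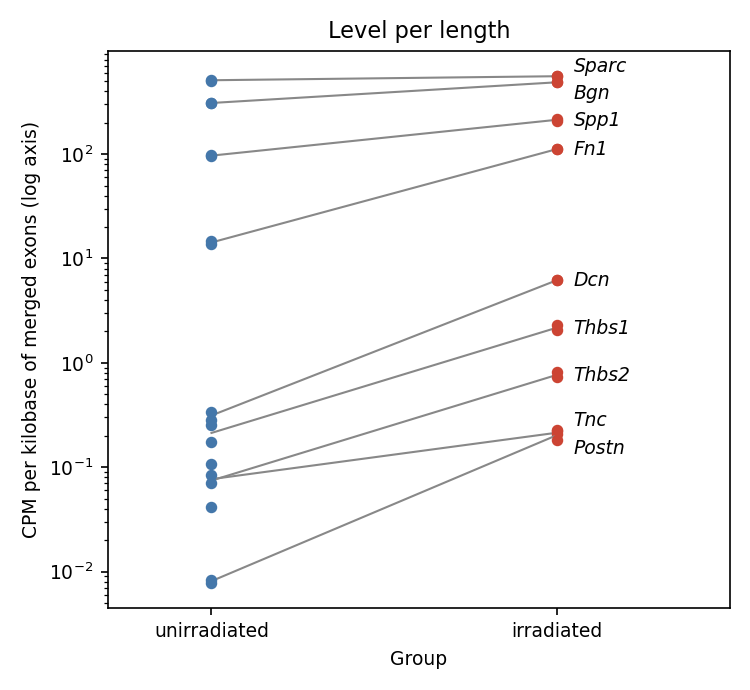
CPM per kilobase of merged exons (log axis) for 9 matrix genes in the unirradiated and the irradiated libraries. Points are libraries and lines join group means. Sparc, Bgn, Spp1 and Fn1 form an upper set in both groups, and Fn1 closes part of the distance to the other 3, from 14.2 to 112.

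Other structural glycoproteins of the matrix rose in 27 of 35 tested genes and fell in 4, of 45 listed. Their median log2 fold change was 0.88. Over all tested genes, 30.4% rose and 30.3% fell. Of the 27, 6 had reached the filter on low counts only through the irradiated libraries (Comp, Eln, Mfap2, Nid1, Sparcl1 and Fras1), and of the 29 that reached it in both unirradiated libraries 21 rose and 4 fell. The most changed at a mean of at least 5 CPM over all 4 libraries were Ccn5 and Ccn3, secreted regulators of the CCN family. Both met that mean only through the irradiated libraries. Ccn5 rose from 0.545 ± 0.101 to 15.5 ± 1.41 CPM (SD, n = 2; log2 fold change 4.82, SE 0.24), and Ccn3 from 0.788 ± 0.291 to 10.7 ± 1.29 CPM (3.74, SE 0.25). Among the 4 that fell were 2 other genes of that family, Ccn1 (log2 fold change -0.86) and Ccn2 (-0.64). The remaining pair was Ltbp1 (-0.87) and Ltbp4 (-0.28), binders of latent TGF-beta. All 4 were chosen after their values were seen. Ccn2 was low, at 3.65 ± 0.118 and 2.34 ± 0.112 CPM (edgeR adjusted p = 0.0409). The number of these glycoprotein genes that fell was 3 with upper-quartile scaling, with DESeq2 and without the filter on low counts.

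Other proteoglycans rose in 8 of 12 tested genes, beside 30.4% of all tested genes. None was lower by edgeR, by DESeq2 or at an unadjusted p under 0.05, beside 30.3% lower of all tested genes by edgeR. The median log2 fold change of the 12 was 0.88. Of the 8, 3 had reached the filter only through the irradiated libraries, which leaves 5 of 7. The count was 5 without unirradiated replicate 1 and 4 without irradiated replicate 1. Fmod, which encodes fibromodulin, a further leucine-rich collagen binder, rose from 1.82 ± 0.0971 to 16.8 ± 1.93 CPM (SD, n = 2; log2 fold change 3.21, SE 0.19, adjusted p = 1.93e-63). It met the mean of 5 CPM required for naming only through the irradiated libraries. Prelp, of the same family, rose from 59.1 ± 1.54 to 164 ± 2.80 CPM (1.47, SE 0.05, adjusted p = 6.56e-182). Of the 25 listed, 13 were too low to be tested.

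Receptors of these proteins rose in 14 of 21 tested genes and fell in 4, beside 30.4% and 30.3% of all tested genes. The median log2 fold change of the receptors was 0.88. Of the 18 that reached the filter in both unirradiated libraries, 12 rose and 4 fell. The number that fell was 2 with upper-quartile scaling. The most changed at a mean of at least 5 CPM were Stab1, a scavenger receptor that takes up SPARC (log2 fold change 1.64, SE 0.15), and Itgb8, an integrin chain that pairs with alpha-v (1.41, SE 0.16). The chains of the classic fibronectin receptor, chosen after their values were seen, both fell: Itga5 from 120 ± 3.51 to 84.5 ± 1.19 CPM and Itgb1 from 1004 ± 2.52 to 859 ± 8.79 CPM (SD, n = 2; log2 fold changes -0.50 and -0.23). The alpha-v chain Itgav (-0.14) and the hyaluronan and osteopontin receptor Cd44 (-0.08) were the other two that fell. Cd47 and Cd36, among the receptors of thrombospondin-1 and also chosen after their values were seen, both rose. Cd47 went from 181 ± 0.613 to 296 ± 3.11 CPM and Cd36 from 0.442 ± 0.0439 to 5.40 ± 0.838 CPM. Tlr2 and Tlr4, receptors of soluble biglycan chosen in the same way, rose with log2 fold changes of 2.25 and 0.91.

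Genes for assembly and crosslinking of the matrix rose in 8 of 11 tested and fell in 3. Of all tested genes, 30.4% rose and 30.3% fell. The median log2 fold change of the 11 was 0.42. Among the lysyl oxidases, the copper enzymes that crosslink collagen, Loxl2 rose from 9.05 ± 1.73 to 30.8 ± 2.10 CPM and Loxl4 fell from 160 ± 1.53 to 64.6 ± 0.124 CPM (SD, n = 2; log2 fold changes 1.76, SE 0.11, and -1.30, SE 0.05). Enzymes that build the glycosaminoglycan chains of proteoglycans rose in 4 of 18 and fell in 7, with a median log2 fold change of -0.13, beside 30.4% and 30.3% of all tested genes. The number that rose was 7 with upper-quartile scaling and 7 under the stricter filter on low counts. Ust, which sulphates uronic acid in those chains, rose from 14.3 ± 3.21 to 34.9 ± 0.887 CPM (log2 fold change 1.29, SE 0.10). B3galt6, which adds a sugar to the linker on which many such chains are built, fell from 13.8 ± 1.84 to 5.73 ± 1.12 CPM (-1.26, SE 0.16; SD, n = 2).

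Ligands, receptors and feedback genes of TGF-beta, an inducer of many matrix genes, rose in 7 of 15 and fell in 4 (median log2 fold change 0.13), and in 10 and 3 with upper-quartile scaling. Of the 7, 1 (Lrrc32) had reached the filter on low counts only through the irradiated libraries, which leaves 6 of 14. Over all tested genes, 30.4% rose and 30.3% fell. Tgfb3, a ligand, rose from 36.4 ± 0.00846 to 69.0 ± 0.432 CPM (log2 fold change 0.92, SE 0.07) and Tgfbr3, a co-receptor, from 32.7 ± 1.15 to 57.1 ± 1.76 CPM (0.80, SE 0.07; SD, n = 2). Tgfb1, the ligand Thbs1 is known to activate and chosen after its values were seen, did not pass (log2 fold change 0.06, adjusted p = 0.400).

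**Figure D5:**
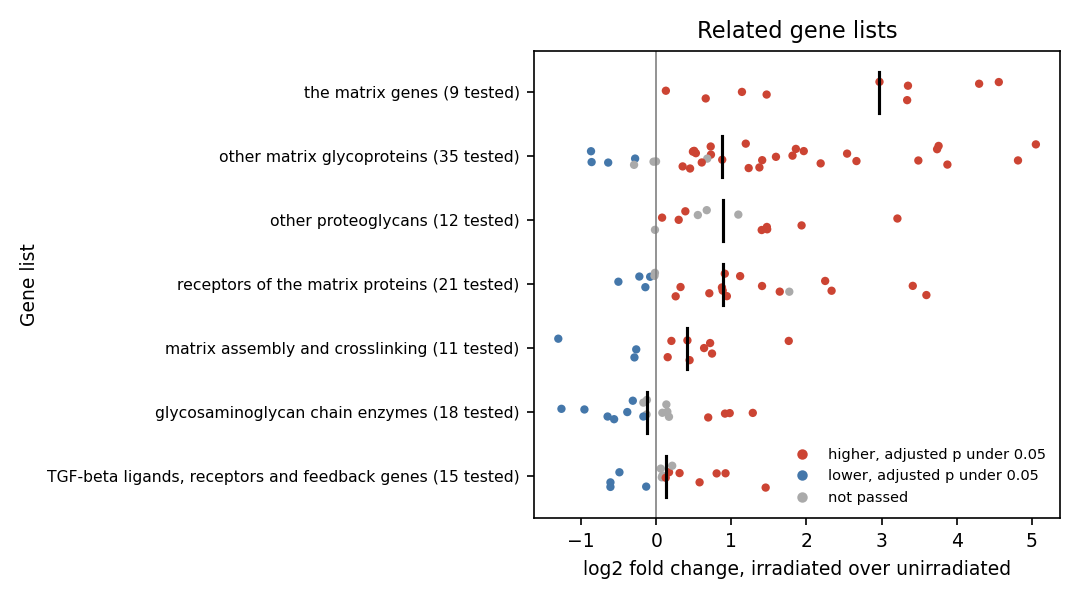
Log2 fold change of each tested gene of the matrix genes and of 6 related lists, with vertical bars at the medians. Red genes were higher and blue ones lower at an adjusted p under 0.05. The median was 2.97 for the 9 matrix genes, 0.88 for other glycoproteins, proteoglycans and receptors, and -0.13 for glycosaminoglycan chain enzymes.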

How the data were processed

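Messenger RNA of 4 MC38 libraries was measured, 2 unirradiated and 2 irradiated. The authors deposited raw counts, a whole number of reads for each Ensembl gene in each library. According to the submitters' processing notes, tools included HTSeq, DESeq2, HISAT and HISAT2, with mm10 as the build and no versions or roles. The sources used here do not give the annotation, the strand setting or how reads with several matches were treated. Groups came from the sample titles, whose replicate numbers match the column names. The description of unirradiated replicate 2 carries another number.

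Of 26561 genes, 26402 took a symbol, coordinates and exon lengths from GENCODE M21 (GRCm38). Counts were tested with edgeR 4.0.16 in R 4.3.3 (filterByExpr, TMM, robust glmQLFit, glmQLFTest, 1 term for irradiation), with Benjamini-Hochberg adjustment over the 15298 genes that passed the filter. The fit rests on 2 residual degrees of freedom per gene, and 90.0% of genes had an infinite prior degree of freedom, so that their spread came from the trend over all genes. The pipeline was tested on simulated counts. Standard errors are the log2 fold change over the root of F. DESeq2 1.42.0, other scalings and filters, a replicate block and leaving out each library were alternatives.

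The matrix genes, the 6 related lists and the 6 marker lists were chosen with earlier results of these data known. Named were the matrix genes, the 2 most changed of each related list (adjusted p under 0.05, mean of at least 5 CPM, separated groups) and the highest marker of each list. That mean is over all 4 libraries, so a related gene low before irradiation could be named only by being high after it. Other names were chosen after their values were seen. No protein sequences were used here.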

Additional observations from a re-analysis of the deposited data

How the results depend on the processing

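The fit was repeated under 10 alternatives: RLE and upper-quartile scaling, no filter on low counts, at least 5 CPM in 2 libraries, a replicate block, DESeq2 and the omission of each library. Every tested matrix gene had a log2 fold change above 0 in each alternative that gave it a value. Each also passed the threshold there, except Tnc without irradiated replicate 1 (log2 fold change 1.42). Under the filter of at least 5 CPM, Postn and Tnc had no value and the other 7 passed. Lum, tested without the filter, did not pass (log2 fold change -4.68, adjusted p = 0.280). With upper-quartile scaling 5303 genes rose and 3945 fell, beside 4655 and 4634, and the median over tested genes was 0.08. Other proteoglycans that rose numbered 5 under the filter of at least 5 CPM and from 4 to 8 when 1 library was left out. With upper-quartile scaling 2 receptors fell and 7 glycosaminoglycan chain enzymes rose, and 7 of these enzymes also rose under the filter of at least 5 CPM.

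With a replicate block, 9 matrix genes rose, 5 other proteoglycans rose in place of 8, and 4507 genes rose and 4519 fell. Deviations of equally numbered libraries correlated at -0.01. This value was taken over all tested genes, low ones included, so it cannot exclude that equally numbered libraries were handled together.

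With the longest transcript as length, levels in CPM per kilobase before and after irradiation were 840 and 918 for Sparc, 706 and 1115 for Bgn, 106 and 233 for Spp1, 20.01 and 157 for Fn1, 0.390 and 7.71 for Dcn and 0.0135 and 0.339 for Postn. After irradiation Thbs2 was at 0.913 and Tnc at 0.235. The order of Bgn and Sparc, and of Postn and Tnc, then turned after irradiation. Depth limits Postn, Tnc and Lum, with at most 128 counts each over the 4 libraries.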

Other observations

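Neighbours and relatives of the matrix genes, chosen after their values were seen, did not all follow them. Dcn and Lum lie in a cluster of leucine-rich proteoglycan genes on chromosome 10 with Kera and Epyc, further small proteoglycans of cornea and cartilage. Beside 1073 and 965 counts of Dcn in the irradiated libraries, Kera had 1 and 0 counts and Epyc 1 and 6, and both had 0 in the unirradiated libraries. In a second such cluster, on chromosome 13, Aspn rose from 8 and 9 to 19 and 28 counts (log2 fold change 1.48, edgeR adjusted p = 0.0469) and Ogn from 9 and 13 to 29 and 29 (1.40, adjusted p = 0.0391), while Omd had 6 and 36 before and 37 and 29 after (adjusted p = 0.277). Aspn and Ogn, like Sparcl1 and Comp below, reached the filter on low counts only through the irradiated libraries. Spp1 lies on chromosome 5 near Ibsp, the gene of bone sialoprotein, and Sparcl1, a relative of Sparc. Ibsp had 1 count in all 4 libraries together, and Sparcl1 rose from 4 and 2 to 32 and 51 counts (log2 fold change 3.76, adjusted p = 6.21e-07).

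Within the protein families, Thbs3 rose 1.65-fold (log2 fold change 0.73), Comp went from 2 and 5 to 28 and 14 counts (2.54, adjusted p = 0.00358) and Thbs4 had 1 count in all. Of the other tenascins, Tnr rose 3.02-fold, from 7.43 ± 0.830 to 22.4 ± 1.85 CPM (SD, n = 2), and Tnxb 1.66-fold, from 127 ± 4.25 to 211 ± 0.692 CPM. Tnn did not pass, at a log2 fold change of 0.68 and an adjusted p of 0.391. Tgfbi, a relative of Postn, rose 1.44-fold from a high level, 414 ± 10.9 CPM. The rise within each family thus ranged widely, and whether members differ was not tested.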
